A study of Mus musculus with 6 samples.

Results

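The genes described here are En1, En2, Pax2, Pax3, Pax5, Pax7, Pax8, Gbx2, Fgf8 and Wnt1, which pattern the boundary between midbrain and hindbrain in the embryo. A probe set was taken where the platform annotation gives it exactly 1 gene and that gene is 1 of these 10, which found 14 of 45037 probe sets and 9 of the 10 genes. Pax2 had no probe set and was not analysed here. En2 was chosen by its lower signals in these knockout pools, so its difference between the genotypes is a description with no test, and the other genes were added around it. The samples were pineal glands of mice at postnatal day 0, taken by day under 12 h of light and 12 h of dark. Strain 129 is named in the titles of the wildtype samples and not in those of the knockout samples. Homozygous Neurod1 knockouts gave 3 pools and wildtype mice gave another 3, each of 3 glands, from separate samplings, on 1 Affymetrix array. Neurod1 is a helix-loop-helix transcription factor, and which of its exons were removed is not given in the labels. Pools numbered 1, 2 and 3 share a date across the genotypes in the labels.

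At the midbrain-hindbrain boundary, Otx2 marks the midbrain side and Gbx2 the hindbrain side, and the isthmic organizer forms where they meet. The organizer secretes Fgf8 and, on its midbrain side, Wnt1, while the paired-box factors Pax2, Pax5 and Pax8 and the engrailed homeobox factors En1 and En2 hold the territory around it. The pineal gland grows from the roof of the diencephalon, in front of this territory, and lies against the midbrain and cerebellum at birth.

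The labelled genotype and tissue were checked first. Neurod1 had signals of 390, 524 and 123 in knockout pools 1, 2 and 3, against 9027, 9301 and 7519 in wildtype pools, a log2 difference of −4.67 (SE 0.45, limma adjusted p = 0.0362). The difference was −5.04 to −4.13 with single pools left out, and the call ended without knockout pool 1 (limma adjusted p = 0.0985) and without wildtype pool 1 (0.621), 2 (0.316) or 3 (0.376). All signals are linear intensities as deposited, and log2 differences are knockout minus wildtype of log2(signal + 38.6). Of 13 tested pinealocyte markers, 0 passed the test, and the serotonin synthesis enzyme gene Tph1 had signals of 2755 to 12501 in knockout and 6296 to 15095 in wildtype pools. Single pools differed in other tissues, in ribosomal transcripts and in a Y-linked gene. The Y-linked gene, Eif2s3y, had 75.2 in knockout pool 1 and 22.5 in wildtype pool 2, against 1216 to 4278 in the other 4 pools. Summed choroid plexus markers were 3202 in knockout pool 3 and 3426 in wildtype pool 1, against 43344 to 98405 in the other 4 pools. In those 4 pools most of it was Ttr, with 38903 to 87464, against 685 in knockout pool 3 and 898 in wildtype pool 1. Not every marker parted the pools in this way. Aqp1 had 449 in wildtype pool 2 and 495 in wildtype pool 1, while Kcne2 had 348 and 74.1. Relative to the mean of the 6 arrays, the median log2 value of 44 ribosomal protein genes was 1.16 in knockout pool 1, against −0.53 to 0.01 in the remaining pools.

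En2 was the boundary gene whose knockout pools all lay below the wildtype pools. Probe set 1418868_at gave 249, 715 and 695 in knockout pools 1, 2 and 3, against 3390, 1556 and 1317 in wildtype pools 1, 2 and 3. Both pools numbered 1 were the extremes. The means were 553 ± 263 in knockout and 2088 ± 1134 in wildtype (SD, n = 3 each), a ratio of 0.265. The log2 difference was −1.85 (SE 0.48), the fourth lowest of 12797 genes tested, where the median was 0.03. In a sample of whole tissue, fewer cells of a type and less RNA per cell cannot be told apart.

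The size of the En2 difference depended on the pools numbered 1. Within numbers 1, 2 and 3 it was −3.57, −1.08 and −0.89, and without both pools numbered 1 it was −0.98. Knockout pool 1, the lowest for En2, was also the pool with high ribosomal transcripts and 1 of the 2 pools low in Y-linked Eif2s3y, at 75.2. Wildtype pool 1, the highest for En2, had 3475.5 for Eif2s3y and was 1 of the 2 pools low in choroid plexus transcripts. Of the 13 pinealocyte markers, 12 had lower means in knockout, beside 46.8% of all genes tested, and 3 of them had no overlap, beside 4.33% of all genes tested, with a median difference of −0.45 and summed signals of 29701 to 53532 in knockout and 43785 to 69311 in wildtype pools. Knockout pool 3, as low in choroid plexus transcripts as wildtype pool 1, had En2 close to knockout pool 2. The part of these pool features and markers in the En2 values was not tested.

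**Figure D1:**
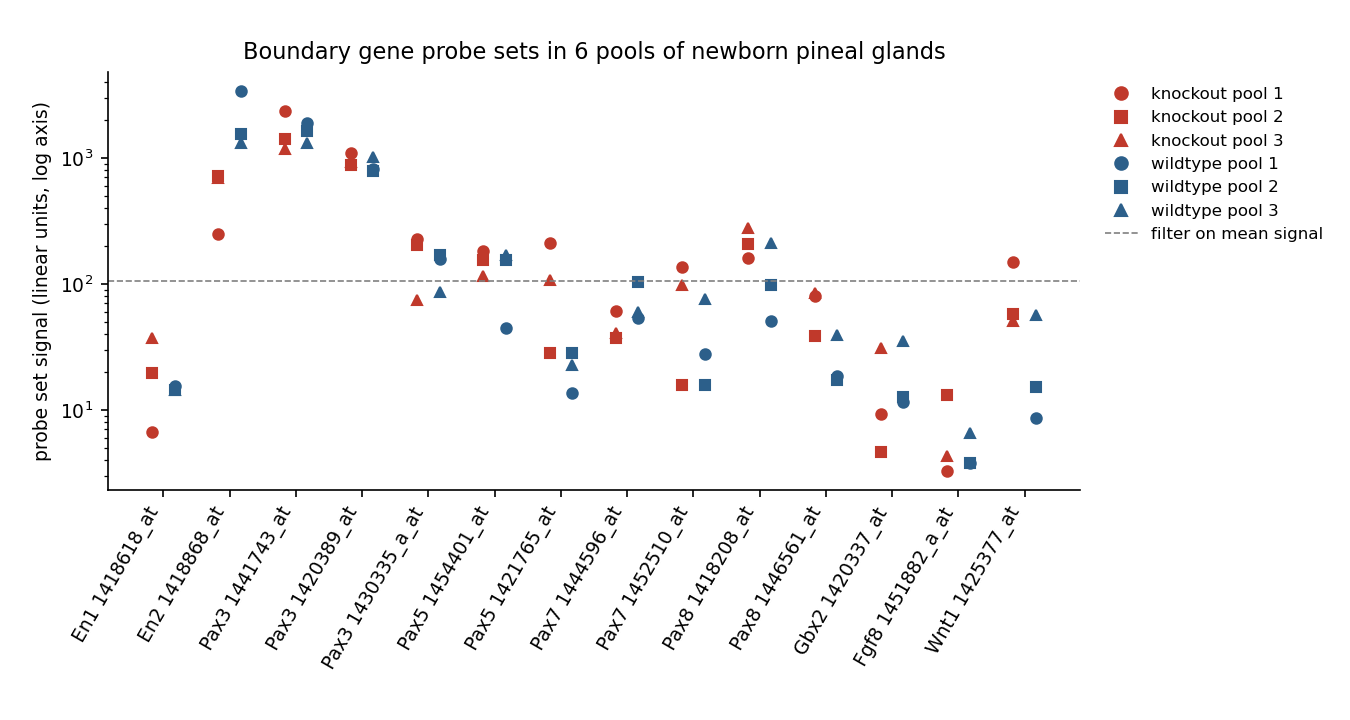
Signal of each of the 14 probe sets (linear units on a log axis) in 3 knockout pools (red, left of each pair) and 3 wildtype pools (blue, right), with symbols for the pool number and a dashed line at the mean signal of 105 below which probe sets were left out of the test. Of the 14 probe sets, that of En2 alone shows knockout pools below all wildtype pools.

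En1, the paralog of En2, stayed at the bottom of the signal range. It had signals of 6.7, 19.8 and 37.2 in knockout pools 1, 2 and 3, against 15.4, 14.5 and 14.5 in wildtype pools. The percentiles of these values on their arrays were 2.2 to 18.7 in knockout and 7 to 13.4 in wildtype. Detection calls were not analysed here, so whether such values stand above background is unknown. The log2 difference was 0.13 (SE 0.25), with overlapping pools, and −0.05 without knockout pool 3.

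The mean of a gene had to reach a signal of about 105 to be tested, and 4 of the 9 genes did: En2, Pax3, Pax5 and Pax8. Over all 12797 genes tested in limma, Neurod1 alone was lower at an adjusted p under 0.05, which is 0.00781%, and 0 genes were higher, while 428 genes had an unadjusted p under 0.05. None of Pax3, Pax5 and Pax8 passed. Pools of the genotypes were free of overlap at 10.1% of the genes tested, and En2 was the 1 boundary gene among them, on the contrast it was picked for. Means were lower in knockout for 46.8% of all genes tested.

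Pax3, a paired-box factor of the dorsal neural tube and neural crest, had overlapping pools in all 3 probe sets. Its probe set of highest mean, 1441743_at, had signals of 2353, 1403 and 1181 in knockout pools 1, 2 and 3, against 1877, 1621 and 1308 in wildtype pools. The groups overlapped, with both pools numbered 1 high and both numbered 3 low. The log2 difference was −0.01 (SE 0.34, limma adjusted p = 0.999). It was 0.32, −0.20 and −0.14 within numbers 1, 2 and 3, and its sign depended on the normalization and on single pools. The other Pax3 probe sets gave 0.13 for 1420389_at, with signals of 784 to 1089 over the 6 pools, and 0.17 for 1430335_a_at, with 74.8 to 228.

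Pax3 also marks neural crest derivatives, whose list had 10 tested markers of 14. None passed the test, 8 had higher means in knockout, 2 of them without overlap beside 5.77% of all genes tested, and their median difference was 0.21. Those 2 were Foxd3, a factor of early neural crest, with 222, 149 and 204 in knockout pools, against 79.1, 18.4 and 78.2 in wildtype pools, and Mitf, the melanocyte factor, with 29704 to 35684 in knockout and 12658 to 29575 in wildtype pools. Summed signals of the list ran from 46290 to 57096 in knockout and from 25846 to 56786 in wildtype pools. Most of it was Mitf and Ednrb, which had 6728.3 to 24771.5 in knockout and 10948.5 to 24571.5 in wildtype pools. Pigment cell genes were dimmer than Mitf, with overlap. Over the 6 pools Dct had 498.8 to 843.5, Tyrp1 251.1 to 1117.6 and Tyr 78.4 to 235. Under the filter, Pmel had 44.3 to 238.5 and Mlana 7.6 to 185.4. Sox10, also of neural crest derivatives, had signals of 232, 248 and 116 in knockout pools, against 132, 160 and 221 in wildtype pools, with overlap. The part of these markers in the Pax3 values was not tested.

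Pax8, a paired-box factor of the boundary, otic and thyroid territories, had higher means in knockout but overlapping pools. Probe set 1418208_at gave 161, 205 and 279 in knockout pools 1, 2 and 3, against 50.9, 97.1 and 212 in wildtype pools. In both genotypes pool 1 was the lowest and pool 3 the highest, and the groups overlapped. The log2 difference was 0.78 (SE 0.43, limma adjusted p = 0.998). It was 1.15, 0.85 and 0.34 for the pools numbered 1, 2 and 3, and without wildtype pool 1 it was 0.43. The dim probe set 1446561_at, with 79.5, 38.6 and 85.1 in knockout pools against 18.7, 17.4 and 39.6 in wildtype pools, gave 0.72. Limma's array weights, which gave nearly all weight to the pools numbered 2, put Pax8 past the threshold (0.85, adjusted p = 0.0158) among 2932 genes called.

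Pax5, which also sets B cell identity, had 2 probe sets with overlapping pools that parted in the pools numbered 3. Probe set 1454401_at had signals of 183, 154 and 116 in knockout pools 1, 2 and 3, against 44.8, 154 and 170 in wildtype pools. Wildtype pool 1 was the low one, and the difference of 0.32 (SE 0.43, limma adjusted p = 0.998) became −0.10 without it. Probe set 1421765_at, under the filter, had 210, 28.1 and 108 in knockout pools, against 13.5, 28.1 and 22.6 in wildtype pools, a difference of 1.17. Within numbers 1, 2 and 3 it was 2.25, 0 and 1.26, against 1.41, −0.003 and −0.44 for 1454401_at. Of the B cell list, 4 of 10 markers were tested and 0 passed. All 4 had higher log2 means in knockout, with a median difference of 0.31, while 46.8% of all genes tested had lower means. The difference was only 0.01 for Igll1 and 0.10 for Vpreb3, both with overlap. The mean linear signal of Igll1 was lower in knockout, at 247 against 264 in wildtype. Of the 4, 1 had no overlap, beside 5.77% of all genes tested that were higher without overlap. That was Dntt, of lymphocyte receptor rearrangement, with 293, 122 and 168 in knockout pools, against 59.8, 99.3 and 107 in wildtype pools. Of the B cell receptor genes, both under the filter, Cd79b had 118, 94.3 and 146 in knockout pools, against 26.5, 16.5 and 56.5 in wildtype pools, without overlap. Cd79a had 179, 40.7 and 33.6 in knockout pools, against 82.9, 132 and 112 in wildtype pools, with overlap. Also under the filter and with overlap, the differences were −0.37 for Blnk and 0.19 for each of Vpreb1 and Rag1. Summed signals of the list ran from 8760 to 20484 in knockout and from 6293 to 12213 in wildtype pools, and nearly all of it was Ebf1, which had 7355 to 19712 in knockout and 5714 to 11622 in wildtype pools. The part of these markers in the Pax5 values was not tested.

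Pax7, a dorsal midbrain and muscle progenitor factor, was dim and inconsistent between its probe sets. Probe set 1444596_at had signals of 61.1, 37.1 and 40.9 in knockout pools, against 53.5, 104 and 59.9 in wildtype pools. Probe set 1452510_at had 136, 15.7 and 97.6 in knockout pools, against 27.9, 15.8 and 75.6 in wildtype pools, so the log2 differences were −0.37 and 0.55, and the median of both gave 0.089. Of the skeletal muscle list, 3 of 12 markers were tested and 0 passed, with 2 lower means and 1 higher mean in knockout. Summed signals of the muscle list ran from 990 to 3111 in knockout and from 1919 to 2148 in wildtype pools. Most of it was Myog, a myogenic factor, which had 379 to 2175 in knockout and 1041 to 1571 in wildtype pools. Under the filter, the myogenic factor Myf6 had 16.2, 10.3 and 21.6 in knockout pools, against 44.6, 60.2 and 27.3 in wildtype pools. It was without overlap, beside 4.33% of all genes tested that were lower without overlap. Myf5 had 2.7 to 11 in knockout and 1.6 to 10.8 in wildtype pools. Differences of the others under the filter, all with overlap, were 0.60 for Tnnt3, 0.44 for Chrna1, 0.27 for Acta1 and 0.17 for Mylpf. They were −0.10 for Myod1, −0.41 for Myh8 and −0.52 for Myh3.

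The signals and borders of the organizer itself were dim. Fgf8, the organizer's secreted growth factor, had signals of 3.3, 13.2 and 4.3 in knockout pools, against 3.8, 3.8 and 6.6 in wildtype pools. Gbx2 had 9.2, 4.6 and 31.2 in knockout pools, against 11.6, 12.7 and 35.4 in wildtype pools. Neither passed a percentile of 16.9 on any array. Their log2 differences were 0.07 and −0.13, at signals under the offset, which shrinks such differences: with an offset of 1 they were 0.30 and −0.59. Single pools turned both signs, to −0.03 for Fgf8 without knockout pool 2 and to 0.05 for Gbx2 without wildtype pool 3.

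Wnt1, the secreted ligand of the midbrain side of the organizer and of the roof plate, was dim in most pools. It had signals of 150, 57.3 and 50.6 in knockout pools 1, 2 and 3, against 8.6, 15.3 and 56.2 in wildtype pools. The highest was knockout pool 1, at percentile 44.1 of its array, and the lowest was wildtype pool 1, at percentile 8.2. The log2 difference was 0.91 and was not tested, with 1.99, 0.83 and −0.09 within numbers 1, 2 and 3. It was 1.89 with an offset of 1 and 0.37 without both pools numbered 1.

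**Figure D2:**
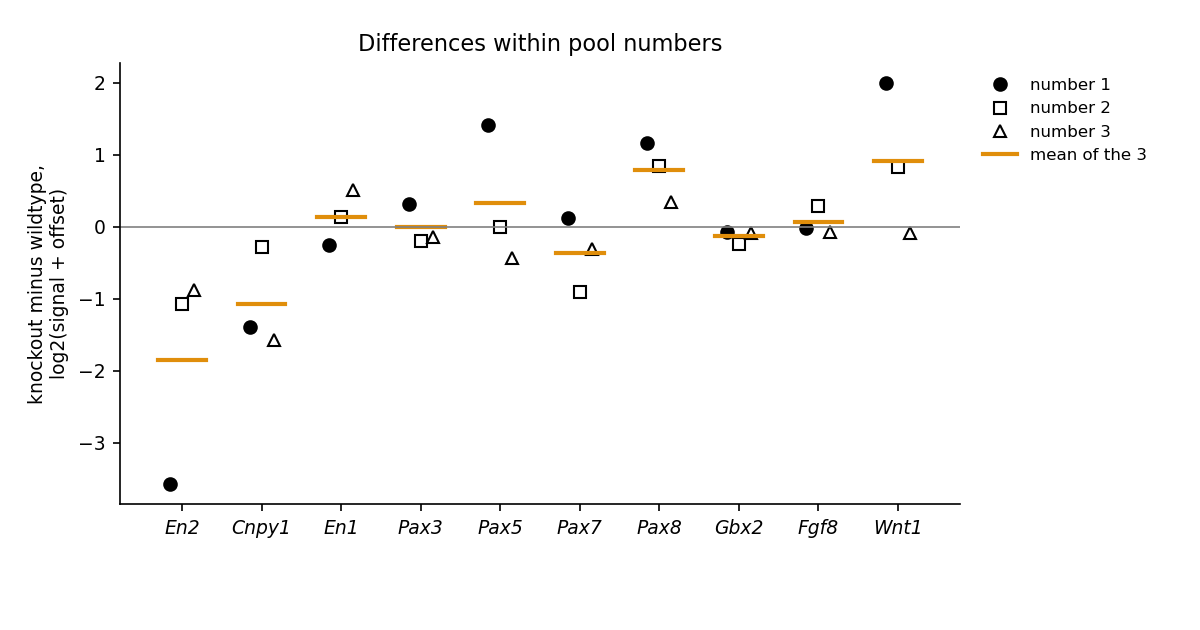
Log2 difference, knockout minus wildtype, within pool numbers 1, 2 and 3 (symbols) and their mean (orange line) for En2, for its neighbour Cnpy1 and for the probe set of highest mean of each other boundary gene. En2, Cnpy1 and, close to 0, Gbx2 lie below 0 in all 3 numbers, and the largest single difference is that of En2 in number 1, at −3.57.

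Whether En2 moved with single boundary genes, apart from the difference it was chosen by, could not be decided by a test with 6 pools. With the genotype means taken out, the log2 signal of En2 was correlated with that of each of the 8 other genes and the pools were permuted within genotypes over all 36 orders, two-sided, a test added after the data were seen. Pearson's r was −0.89 for Wnt1 and −0.83 for Pax5 (exact permutation p = 0.0556 each, Benjamini-Hochberg adjusted 0.222), over 6 pools. It was 0.65 for En1 (adjusted exact permutation p = 0.593) and −0.66 for Pax7, −0.37 for Pax3, −0.30 for Pax8, −0.13 for Gbx2 and 0.30 for Fgf8 (adjusted exact permutation p = 0.722 each). The smallest p that 36 orders allow is 0.0278, so after adjustment over 8 genes no single gene could pass. These orders do not take up the pairing of the pools by number.

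Over the 6 pools with the genotype difference left in, r was −0.94 for Wnt1, −0.71 for Pax5, −0.66 for Pax8, −0.19 for Pax3, −0.10 for Fgf8, 0.10 for En1, 0.13 for Gbx2 and 0.23 for Pax7. Spearman's rho lay between −0.83 for Wnt1 and 0.20 for Gbx2. These values contain the contrast that chose En2 and are a description; permutation over all 720 orders, which contains it too, gave Wnt1 an adjusted exact p of 0.0444 for r and 0.467 for rho, and 0.0667 for r with an offset of 1 or of 112.5. Wildtype pool 1 alone set much of the values of Pax8 and Pax5, which were −0.24 and −0.22 without it. With the number means taken out they were −0.95 and −0.82. Wildtype pool 1 also had the lowest array median, 132, and knockout pool 1 the highest, 184. With quantile normalization r was −0.94 for Wnt1, −0.62 for Pax5 and −0.52 for Pax8. The part of the array medians in these values was not tested. Without knockout pool 1 and wildtype pool 1, the 2 pools farthest from the En2 median, r over 4 pools was −0.67 for Wnt1, 0.65 for Pax3, 0.64 for Pax5, −0.78 for En1, −0.77 for Pax8, 0.92 for Pax7, 0.14 for Gbx2 and −0.48 for Fgf8.

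**Figure D3:**
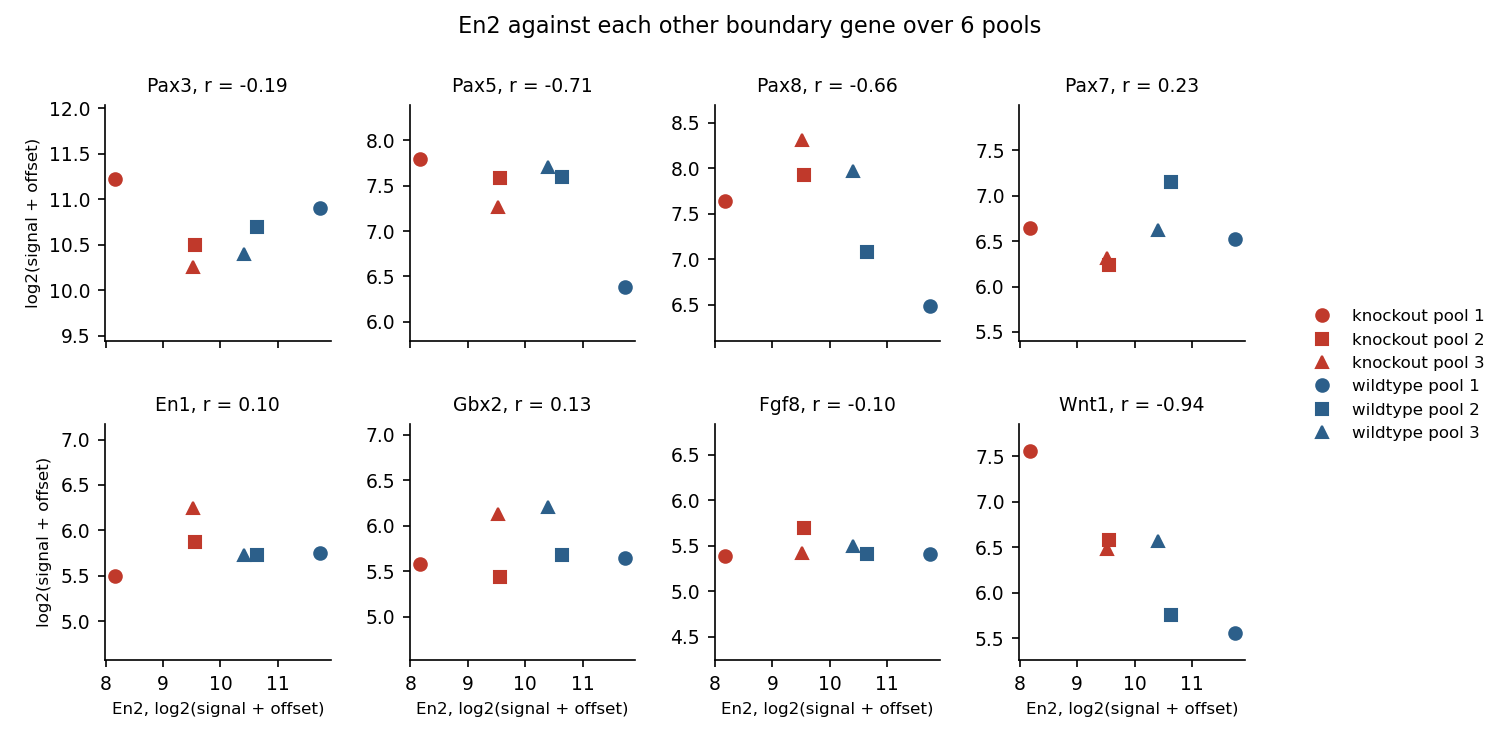
Log2(signal + offset) of each of 8 boundary genes (vertical, each panel spanning the same range) against that of En2 (horizontal) in 3 knockout pools (red) and 3 wildtype pools (blue). The points of Wnt1 slope downward (r = −0.94, with the genotype difference that chose En2 left in), with knockout pool 1 and wildtype pool 1 at the ends, and the panels of En1, Gbx2 and Fgf8 are nearly flat.

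Among other genes of the organizer, Cnpy1 and Otx2 had all knockout pools below the wildtype pools. In zebrafish, Canopy1 promotes FGF signalling at the midbrain-hindbrain boundary. Of 26 genes listed as organizer partners and FGF feedback genes, 17 were tested and 0 passed, with 8 lower and 9 higher means and a median difference of 0.02, against 0.03 over all genes. Cnpy1 probe set 1437996_s_at had signals of 160, 248 and 119 in knockout pools 1, 2 and 3, against 480, 309 and 431 in wildtype pools. No knockout pool reached a wildtype pool, and the log2 difference was −1.08 (SE 0.32, limma unadjusted p = 0.00763, adjusted 0.998). Within numbers 1, 2 and 3 it was −1.39, −0.28 and −1.57, and without both pools numbered 1 it was −0.92. With limma's array weights it was −0.41, and the median over the Cnpy1 probe sets gave −0.68.

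The other Cnpy1 probe sets were also lower in knockout. Probe set 1456127_at had 111, 100 and 106 in knockout pools, against 267, 200 and 159 in wildtype pools, a difference of −0.76 with no overlap. Probe set 1455471_at had 80.8, 130 and 54.3 in knockout pools, against 228, 125 and 166 in wildtype pools, a difference of −0.75 with overlapping pools. Wildtype pool 1 was the highest for En2 and for all 3 Cnpy1 probe sets. Over the 6 pools, with the genotype difference left in, the r of Cnpy1 with En2 was 0.81 by 1437996_s_at, a description with no test. Many genes tested had a higher r. Among them were Lmbr1, also near En2 on the chromosome (0.88 by 1426272_at), and Dusp6 of the same organizer list (0.84). The lowest knockout pool was pool 3 for Cnpy1 probe set 1437996_s_at and pool 1 for En2.

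Cnpy1 is the next protein-coding gene after En2 in the RefSeq gene order of assembly GRCm38.p6, a comparison made after the values were seen. In their probe set of highest mean, the pools of the other neighbours overlapped. On the far side of En2, Insig1, a regulator of sterol synthesis, had signals of 9120, 6403 and 10787 in knockout pools, against 5859, 6315 and 8272 in wildtype pools, a difference of 0.35. Beyond Cnpy1, Rbm33 had a difference of 0.30 and Shh, the secreted hedgehog ligand, of −0.07. Of the 10 neighbours, 5 on each side, Lmbr1 also had a probe set with no overlap, the dim 1425605_a_at. It had 24.2, 32.9 and 34.2 in knockout pools against 289, 89.0 and 103 in wildtype pools, a difference of −1.39. The Lmbr1 probe set of highest mean gave −0.34, while 1442371_at gave −0.26 and 1426273_at gave 0.08.

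**Figure D4:**
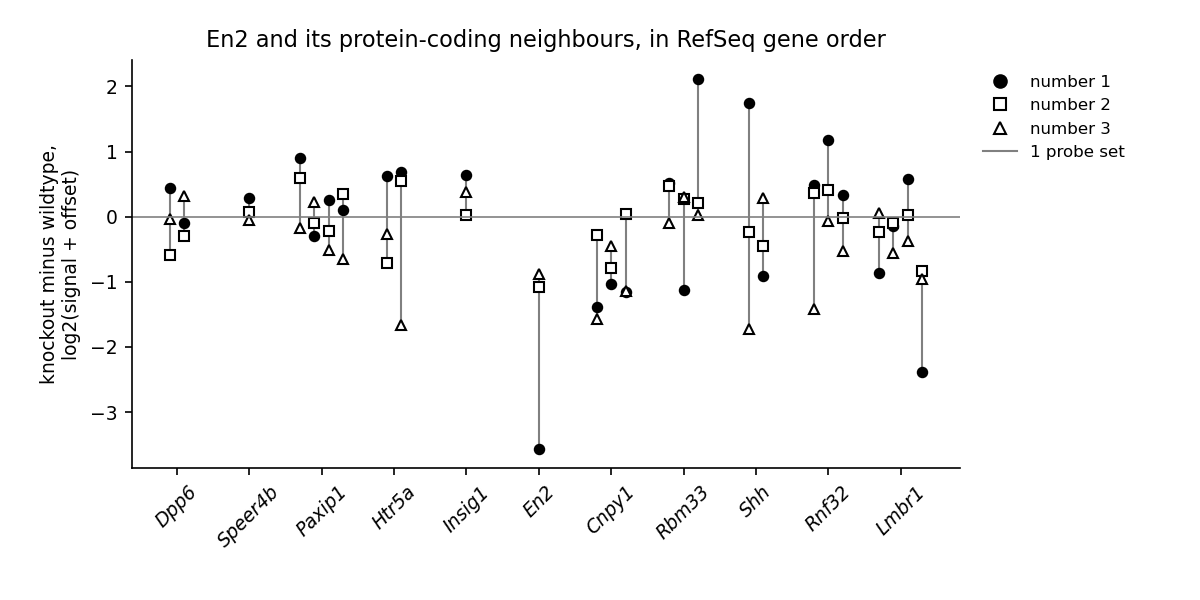
Log2 difference, knockout minus wildtype, within pool numbers 1, 2 and 3 (symbols) for every probe set (grey line) of En2 and of 5 protein-coding genes on each side of it, in RefSeq gene order with spacing not to scale. En2 is below 0 throughout, and so are 2 of the 3 Cnpy1 probe sets. The Lmbr1 probe sets 1425605_a_at and 1442371_at are also below 0 throughout, while the others mostly span 0.

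RefSeq promoters were matched for 7 of the 10 boundary genes and not for En2, Pax3 or Fgf8. Those of Cnpy1, the organizer gene lower beside En2, and of Pax8, the tested boundary gene with the highest difference, are shown because Neurod1 binds E-boxes. Each runs 5′ to 3′ from 250 bases before to 50 after a start on the minus strand of GRCm38.p6, with E-boxes (CANNTG, the same on both strands) in capitals. The lines are Cnpy1 at chr5:28245739-28246038, Cnpy1 at chr5:28210119-28210418 and Pax8 at chr2:24475550-24475849.
Cnpy1 upstream start: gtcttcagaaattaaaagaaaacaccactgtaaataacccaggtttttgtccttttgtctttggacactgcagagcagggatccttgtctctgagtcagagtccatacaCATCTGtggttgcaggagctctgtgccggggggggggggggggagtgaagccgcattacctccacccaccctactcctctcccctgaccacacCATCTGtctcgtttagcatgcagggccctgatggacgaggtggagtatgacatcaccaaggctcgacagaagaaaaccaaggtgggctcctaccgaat
Cnpy1 downstream start: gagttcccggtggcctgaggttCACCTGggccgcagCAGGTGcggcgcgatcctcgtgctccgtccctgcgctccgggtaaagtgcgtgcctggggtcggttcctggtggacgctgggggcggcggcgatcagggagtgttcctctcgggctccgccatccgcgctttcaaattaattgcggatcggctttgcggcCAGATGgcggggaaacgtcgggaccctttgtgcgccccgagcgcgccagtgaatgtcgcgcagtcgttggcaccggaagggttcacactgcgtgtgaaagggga
Pax8: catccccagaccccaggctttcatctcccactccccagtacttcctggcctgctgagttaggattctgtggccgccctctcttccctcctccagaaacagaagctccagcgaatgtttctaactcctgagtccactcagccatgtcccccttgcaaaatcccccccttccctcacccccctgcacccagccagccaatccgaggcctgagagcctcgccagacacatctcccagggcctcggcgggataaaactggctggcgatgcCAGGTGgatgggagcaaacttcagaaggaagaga

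The Cnpy1 promoters held 2 and 3 E-boxes and that of Pax8 held 1. A match is a description and not a binding site, and 72.3% of 32851 promoters of this length held at least 1. The form CAGATG, or CATCTG on the other strand, stood in 17.2% of all promoters, 2 times in the upstream and 1 time in the downstream Cnpy1 promoter, and 0 times in those of the 7 boundary genes. En1 had 3 E-boxes and Gbx2 had 4, beside 17.6% of all promoters with 3 or more. The Wnt1 and Pax7 promoters had 0, as did 27.7% of all promoters. Pax5 had 1, and the Pax2 promoters had 0, 1 and 2.

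The next organizer genes by p had higher means or a single deviating pool. Lmx1b, a LIM homeobox factor that works with Wnt1 and En1 in the midbrain, had signals of 314, 329 and 360 in knockout pools, against 192, 201 and 186 in wildtype pools, with no overlap (0.69, SE 0.25, limma adjusted p = 0.998). Spry2, an inhibitor of FGF signalling, had 5047, 3256 and 4824 in knockout pools, against 1424, 2710 and 3000.3 in wildtype pools (0.91, SE 0.37, limma adjusted p = 0.998). Its difference was 0.58 without wildtype pool 1, 0.47 without both pools numbered 1 and 0.37 with array weights. Dusp6, a phosphatase induced by FGF signalling, had 322, 992 and 1033 in knockout pools, against 1287, 1024 and 1092 in wildtype pools. Its low value was that of knockout pool 1, and without that pool the difference of −0.67 was −0.15. Otx2, of the midbrain side and of pinealocytes, had 9618 to 12144 in knockout and 12786 to 15178 in wildtype pools, also without overlap. Over the list, 2 genes were lower and 2 higher without overlap, beside 4.33% and 5.77% of all genes tested.

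Markers of midbrain and cerebellum cells had as many higher as lower means in knockout. Of 34 listed, 18 were tested, 12 were under the filter and 0 passed, with 9 lower and 9 higher means and a median difference of 0.00164. Within numbers 1, 2 and 3 the median was 0.34, 0.21 and −0.04. Summed signals of the list ran from 36479 to 48295 in knockout and from 27969 to 37629 in wildtype pools, most of it from Zic1, which had 25373 to 37886 in knockout and 17839 to 25990 in wildtype pools. Of cerebellar granule cell genes, Cbln1 had 299 to 693 in knockout and 389 to 738 in wildtype pools, Cbln3 had 105 to 195 in knockout and 73.8 to 174 in wildtype pools, and Atoh1 had 135 to 158 in knockout and 65.1 to 173 in wildtype pools. The granule cell gene Gabra6 was under the filter, with 38.8 to 71.2 in knockout and 45.3 to 63.4 in wildtype pools. Of Purkinje cell genes, Calb1 had 82.8 to 141 in knockout and 83.5 to 216 in wildtype pools, and Pcp2, under the filter, had 22 to 126 in knockout and 18.2 to 73.3 in wildtype pools. Both genotypes overlapped at each of these genes. Th, of dopamine neurons, had 169 to 259 in knockout and 203 to 322 in wildtype pools.

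The members of that list with the smallest p had higher means in knockout. Tfap2b, a factor of cerebellar and midbrain neurons and of neural crest, had 357, 261 and 249 in knockout pools, against 108, 134 and 148 in wildtype pools (0.95, SE 0.29, limma adjusted p = 0.998). Foxa2, a floor plate factor, had 391, 217 and 232 in knockout pools, against 46.9, 91.5 and 211 in wildtype pools (1.14, SE 0.44, limma adjusted p = 0.998). The pools did not overlap for either. Of the 18 tested genes of the list, 2 were higher and 0 lower without overlap, beside 5.77% and 4.33% of all genes tested. Pou4f1, also of habenula neurons, had a difference of 1.11 that was 0.35 without knockout pool 3, where its signal was 818, and Gata2 had a difference of 0.59 that was 0.31 without wildtype pool 3 and 0.94 without both pools numbered 1. That of Foxa2 was 0.55 without both pools numbered 1.

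Genes most like En2 over the 6 pools were taken by Pearson's r among 12793 tested genes outside the boundary set. They were Pex2, a peroxisome assembly gene, with r = 0.994, and Coq10a, Tefm, Echdc1 and Zc3h6, with r of 0.986 to 0.987. Pex2 had signals of 620, 1014 and 1047 in knockout pools, against 2168, 1617 and 1531 in wildtype pools. Like En2 it was lowest in knockout pool 1 and highest in wildtype pool 1. These are the highest of many values over 6 points that share arrays, and they are a description with no test.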

How the data were processed

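Per the labels' protocols, RNA went through a single amplification and was labelled with biotin by 3′ in vitro transcription. The deposited values are linear probe set intensities made by the authors with GCOS, per the submitters' processing notes, and which signal algorithm was run is not given. Each array's 2% trimmed mean was near 500 (499.5 to 499.96), so the arrays had been scaled before deposit. Array medians were 132 to 184, lowest in wildtype pool 1 and highest in knockout pool 1.

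Values were used as log2(signal + 38.6), the offset being the 20th percentile of all values. Probe sets in the lowest 40% by mean log2 value were left out. Of several probe sets the one of highest mean stood for the gene, and 12797 of 18193 genes were tested. The genotypes were compared by limma 3.58.1 under R 4.3.3 (lmFit, then eBayes with its trend option), two-sided, at a Benjamini-Hochberg adjusted p under 0.05, with 4 residual degrees of freedom. SEs are those of the fit; for probe sets it left out, those of a fit of all named probe sets. The script was tested on simulated data. The number of arrays limits the precision (median SE 0.34). Exact permutation of 1 gene between 3 and 3 pools cannot go below p = 0.1 and was not used.

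Pools of the same number share a date in the labels, and their deviations from the genotype means correlated by 0.32, 0.25 and 0.36, so the numbers pair the pools. Another fit therefore took the number as a replicate block. Correlations with En2 were tested by exact permutation within genotypes, chosen after seeing the data. Other alternatives changed the offset, normalization, filter, probe set choice, variance model and array weights or left out pools. Named genes were all boundary genes, Neurod1, the 4 genes of each of the organizer and midbrain lists with the smallest p, and the 5 most like En2. Eif2s3y and Ttr were named only to describe single pools. Neighbours of En2, promoters, Otx2, Zic1 and the other list markers named were chosen after their values were seen. The boundary genes, lists and rules were chosen with earlier results of these data known.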

Additional observations from a re-analysis of the deposited data

How the results depend on the processing

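En2 kept a lower mean in knockout under all 15 alternatives run for it, from −2.11 to −0.98 on the log2 scale, where −0.98 was without both pools numbered 1. The number of genes called by limma was 0 with an offset of 1 (421 at an unadjusted p under 0.05) and 0 without both pools numbered 1 (723), 2 with every probe set fitted (both of Neurod1), 2932 with array weights, whose estimation stopped before convergence, and 0 to 1 with 1 pool left out (215 to 1161 at an unadjusted p under 0.05). The replicate block called 1 gene, Neurod1 (adjusted p = 0.0158), and changed no call of a boundary gene. The Pax3 difference turned to 0.062 with quantile normalization and 0.13 with the median over probe sets, and ran from −0.29 to 0.19 with 1 pool left out. Those of En1, Fgf8 and Gbx2 also changed sign with single pools left out, with ranges of −0.05 to 0.32, −0.03 to 0.12 and −0.34 to 0.05, and that of Pax7 with the median over probe sets. That of Pax5 turned to −0.22 without both pools numbered 1 and ran from −0.10 to 0.56 with 1 pool left out. The count of correlations with En2 past the adjusted threshold, 1, was 0 with either other offset; it was also 0 in the exact permutation within genotypes, which no gene alone could pass. All but that last test contain the contrast that chose En2. Signs of r turned for Fgf8 with quantile normalization (0.21) and genotype means removed (0.30), for Pax7 with the median over probe sets (−0.53) and genotype means removed (−0.66), and for Gbx2 with genotype means removed (−0.13). With 1 pool left out r ran from −0.55 to 0.23 for Fgf8, −0.17 to 0.38 for Gbx2, −0.65 to 0.57 for En1, −0.63 to 0.87 for Pax3 (0.87 without knockout pool 1), −0.92 to −0.24 for Pax8, −0.81 to −0.22 for Pax5, 0.024 to 0.44 for Pax7 and −0.97 to −0.85 for Wnt1. With the median over probe sets r was −0.95 for Pax5, −0.78 for Pax8 and −0.71 for Pax3, so it also depended on the choice of probe set. The cause of these turns and shifts was not tested. Without detection calls, the dim boundary genes cannot be set against background.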
